A study of Mus musculus with 384 samples.

Results

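Immediate early and AP-1 genes were followed cell by cell in regulatory T (Treg) cells sorted from the ear skin of mice. The set held 10 genes listed by symbol, Fos, Fosb, Fosl2, Jun, Junb, Jund, Ier2, Dusp1, Egr1 and Klf6, out of 50556 gene symbols in the count matrix, and all 10 were present. Ears were treated topically with 5% imiquimod, a Toll-like receptor agonist that gives a psoriasis-like inflammation in mice, or with vehicle, and Treg cells were sorted into plates on day 3. The design names 2 mice per treatment and ties no plate to a mouse, and strain, age and reporter alleles are not given in the sources used here. Each treatment filled 2 plates of 87 single-cell wells, and controls were 16 wells of 10 cells and 20 empty wells.

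Immediate early genes are transcribed within minutes of a stimulus, from promoters already set for activation, without a need for new protein synthesis. The Fos and Jun proteins pair through leucine zippers to form the transcription factor AP-1, which in T cells acts downstream of the antigen receptor and MAP kinases, often beside NFAT. Dusp1 is a phosphatase that switches MAP kinases off again, Egr1 and Klf6 are zinc finger transcription factors, and Ier2 is a small nuclear immediate early protein. The same genes are known to respond to the handling and enzymatic dissociation of tissue.

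Wells with 500 or more genes and 10000 or more counts entered the analysis, 38 and 44 on the imiquimod plates and 62 and 58 on the vehicle plates. Kept cells held between 47481 and 5946386 counts. Their median number of genes was 975 and 1093 on the imiquimod plates, against 1040.0 and 1503 on the vehicle plates. Foxp3, the factor that defines Treg cells, had a count in 14 of 38 and 14 of 44 imiquimod cells, against 24 of 62 and 23 of 58 vehicle cells. A T cell receptor or CD3 count was present in 33 and 38 imiquimod cells, against 56 and 53 vehicle cells. Marker lists of keratinocytes, fibroblasts, macrophages, mast cells, neutrophils, B cells, natural killer cells and endothelium summed to between 0 and 483 CPM per plate, and Krt1, Mcpt4, Ms4a2 and Fcer1a were at 0 on all 4 plates. Some of these lists differed between the treatments. Among keratinocyte markers, Krt14 had counts on both imiquimod plates and was at 0 on both vehicle plates. The keratinocyte sum was by far the highest on the second imiquimod plate, where it was mostly Krt14. On the first imiquimod plate it was lower than on either vehicle plate, and the share of cells with a keratinocyte count overlapped. Mast cell markers, nearly all Kit, summed to 4.501 and 6.42 CPM in 5.26% and 4.55% of imiquimod cells, against 272.6 and 115.6 CPM in 29.0% and 25.9% of vehicle cells. Neutrophil markers summed to 54.4 and 55.6 CPM in imiquimod, against 120.5 and 396 CPM in vehicle, where nearly all was Mmp9. Other neutrophil markers went the other way, since S100a8 and S100a9 were higher in imiquimod without overlap. The share of cells with a neutrophil marker count was also higher in imiquimod without overlap. B cell markers summed to 2.17 and 26.5 CPM in imiquimod, against 0 on both vehicle plates. Endothelial markers had a count in 2.63% and 15.9% of imiquimod cells, against 21.0% and 27.6% of vehicle cells. Macrophage and dendritic markers had a count in 23.7% and 50.0% of imiquimod cells, against 32.3% and 56.9% of vehicle cells, with overlapping plates. They summed to 13.2 and 65.1 CPM in imiquimod, against 4.52 and 134.8 CPM in vehicle. A haemoglobin count was present in 55.3% and 45.5% of imiquimod cells, against 3.23% and 22.4% of vehicle cells, with 654 and 334.4 CPM of the 4 haemoglobin genes in imiquimod against 655 and 24.4 CPM in vehicle. The part of these markers in the results was not tested. The replicate was the plate. The p-values of the fits set the difference between treatments against how far plates of 1 treatment differ. The exact p ranks that difference among the ways of splitting the 4 plates. A difference between plates as a whole cannot be separated from the treatment by this design.

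In the plate sums all 10 genes had a log2 fold change above 0 with TMM scaling, 9 of them without scaling factors (Fosl2 at -0.038), and none passed the test. Fos, a subunit of AP-1 that pairs with Jun proteins but not with itself, measured 4055 and 2854 CPM in imiquimod, against 696 and 298.2 CPM in vehicle. CPM are counts scaled to the total of the plate sum, here with TMM factors. Both imiquimod plates lay above both vehicle plates for Fos. The log2 fold change was 2.80 ± 0.59 (SE), with an unadjusted p of 0.00045 and an adjusted p of 0.42 in edgeR's quasi-likelihood test over all 14462 genes tested. The adjusted threshold of 0.05 was passed by 0 of the 10 genes and by 0% of all genes.

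At an unadjusted p under 0.05, 3 of the 10 genes were higher in imiquimod, Fos, Dusp1 and Ier2, beside 1.72% of all tested genes. None of the 10 was lower at that level, beside 9.82% of all tested genes. Dusp1 had a log2 fold change of 2.28 ± 0.48 and Ier2 of 2.41 ± 0.95 (edgeR adjusted p = 0.42 for both). All 10 log2 fold changes were above 0, as were 46.6% of those of all tested genes, and their median was 1.54 against -0.26 over all tested genes. DESeq2's size factors moved the median of all genes by 0.37 on the log2 scale and left all 10 above 0, while library totals without scaling factors, an alternative chosen after seeing the data, moved it by -0.51 and gave the 10 genes a median of 1.01. Measures that give each cell equal weight were smaller. When log2(CPM + 1) was averaged over cells and tested in limma, 7 of the 10 were above 0, with a median of 0.18 against -0.12 over all tested genes. When the number of cells with a count was tested in place of the sums, 7 of 8 genes tested were above 0, with a median of 0.35 against -0.015. Fos stood at 1.83 and 0.80 in these fits and Ier2 at 0.21 and 0.074.

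For 8 of the 10 genes the imiquimod plates lay wholly above the vehicle plates, beside 13.7% of all tested genes. Fosl2 and Klf6 were the exceptions. The count depended on the scaling. With DESeq2's size factors all 10 were separated in this way, beside 16.2% of all tested genes, and without scaling factors 5 were, Fos, Junb, Jund, Ier2 and Dusp1, beside 10% of all tested genes. DESeq2 itself called 4 of the 10 genes as higher, beside 6.69% of all tested genes, namely Fos (adjusted p = 2.98e-05), Dusp1 (7.80e-05), Ier2 (0.00253) and Junb (0.0173). It also called 19.2% of all tested genes as lower and none of the 10.

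**Figure D1:**
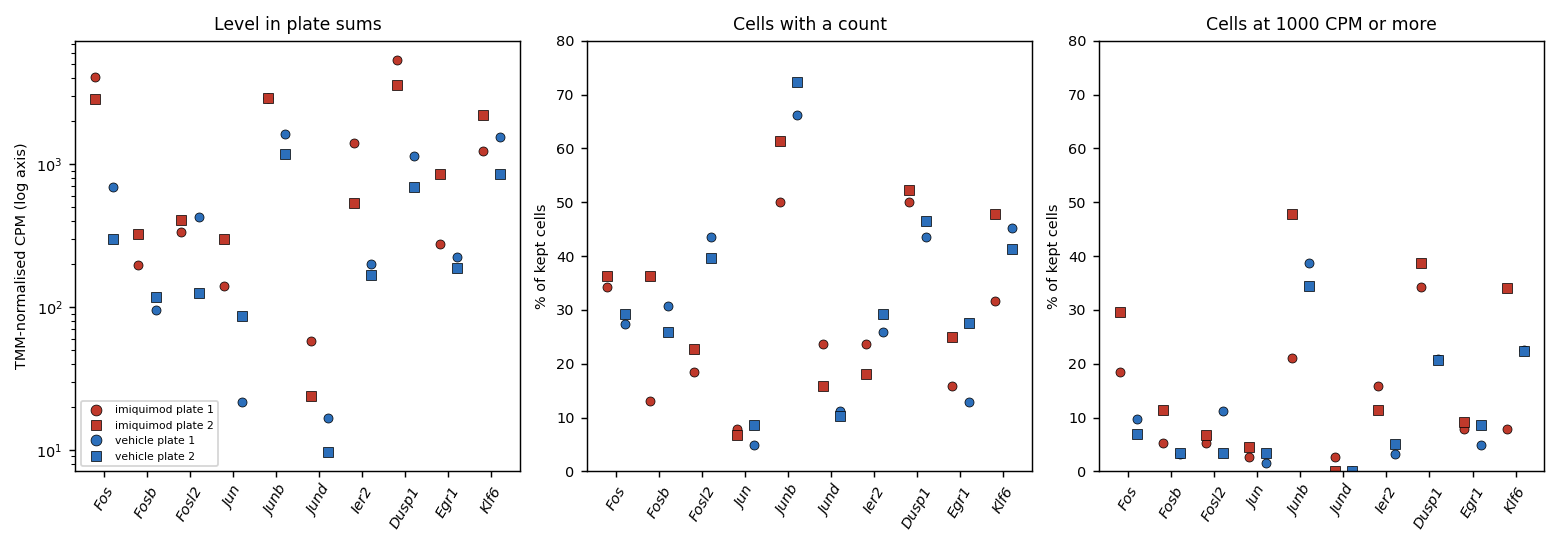
The 10 genes by plate, with the TMM-normalised CPM of plate sums on a log axis at left, the percentage of kept cells with a count in the middle and the percentage of kept cells at 1000 CPM or more at right; circles and squares are the plates of a treatment. Fos, Dusp1 and Ier2 separate by treatment at left and at right, while in the middle Ier2 has 23.7% and 18.2% of imiquimod cells against 25.8% and 29.3% of vehicle cells.

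The share of cells carrying a gene gave another picture from the sums. Fos had a count in 34.2% and 36.4% of imiquimod cells, against 27.4% and 29.3% of vehicle cells. The exact 95% binomial interval of the first imiquimod plate ran between 19.6% and 51.4%, and that of the first vehicle plate between 16.9% and 40.2%, covering counting error only. Among cells with a Fos count the median level was 3697 and 5049.5 CPM in imiquimod, against 317.6 and 7.05 CPM in vehicle. Cells with at least 1000 CPM of Fos made up 18.4% and 29.5% of imiquimod cells, against 9.68% and 6.90% of vehicle cells. The treatment means differed by 6.92 points in the share of cells with a count and by 15.7 points in the share at 1000 CPM. The exact permutation p was 0.3333 for each of these 3 measures, the smallest that 2 plates against 2 allow, and it was 0.556, 0.556 and 0.833 after adjustment over the 10 genes for the share with a count, the median level and the share at 1000 CPM.

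Fosb, a Fos family subunit known for its stable truncated splice form, had a count in 13.2% and 36.4% of imiquimod cells, against 30.6% and 25.9% of vehicle cells, and the plates overlapped. In cells with a Fosb count its median level was 980 and 613 CPM in imiquimod, against 56.6 and 28.7 CPM in vehicle, with no overlap. The 5 positive cells of the first imiquimod plate gave 9140.0 counts in all, of which 1 cell held 41.3%. The log2 fold change of its plate sums was 1.30 ± 1.54 (edgeR adjusted p = 0.82).

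Fosl2, the Fos family member also called Fra-2, went the other way in the share of cells. It had a count in 18.4% and 22.7% of imiquimod cells, against 43.5% and 39.7% of vehicle cells. The 21.0 points between the treatment means were the widest gap in detection among the 10 genes, with an exact p of 0.3333. The plate sums overlapped, with a log2 fold change of 0.43 ± 1.19 (edgeR adjusted p = 0.94). Single cells set those sums: 1 cell held 42.9% of all Fosl2 counts on each imiquimod plate.

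Detection shares did not overlap between treatments for 6 of the 10 genes. Fos, Jund and Dusp1 were higher in imiquimod, beside 6.29% of all tested genes. Fosl2, Junb and Ier2 were lower in imiquimod, beside 42.5% of all tested genes. The exact p was 0.3333 for each of the 6 and 0.556 after adjustment over the 10 genes. The plate medians of genes per cell overlapped between the treatments, with the second vehicle plate highest, as given above, and their part in the detection shares was not tested. In kept cells of at most 1500 genes, a subset chosen after seeing the data, Fos was detected in 33.3% and 37.9% of imiquimod cells against 17.9% and 10.3% of vehicle cells. In plate sums of that subset the log2 fold change was 4.22 ± 1.24 for Fos and 2.86 ± 0.94 for Dusp1 (edgeR adjusted p = 0.45 and 0.73). Fosl2 in that subset was detected in 6.67% and 13.8% of imiquimod cells against 35.9% and 20.7% of vehicle cells. The median number of genes per cell was then 764.5 and 876 on the imiquimod plates, against 804 and 860.0 on the vehicle plates.

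**Figure D2:**
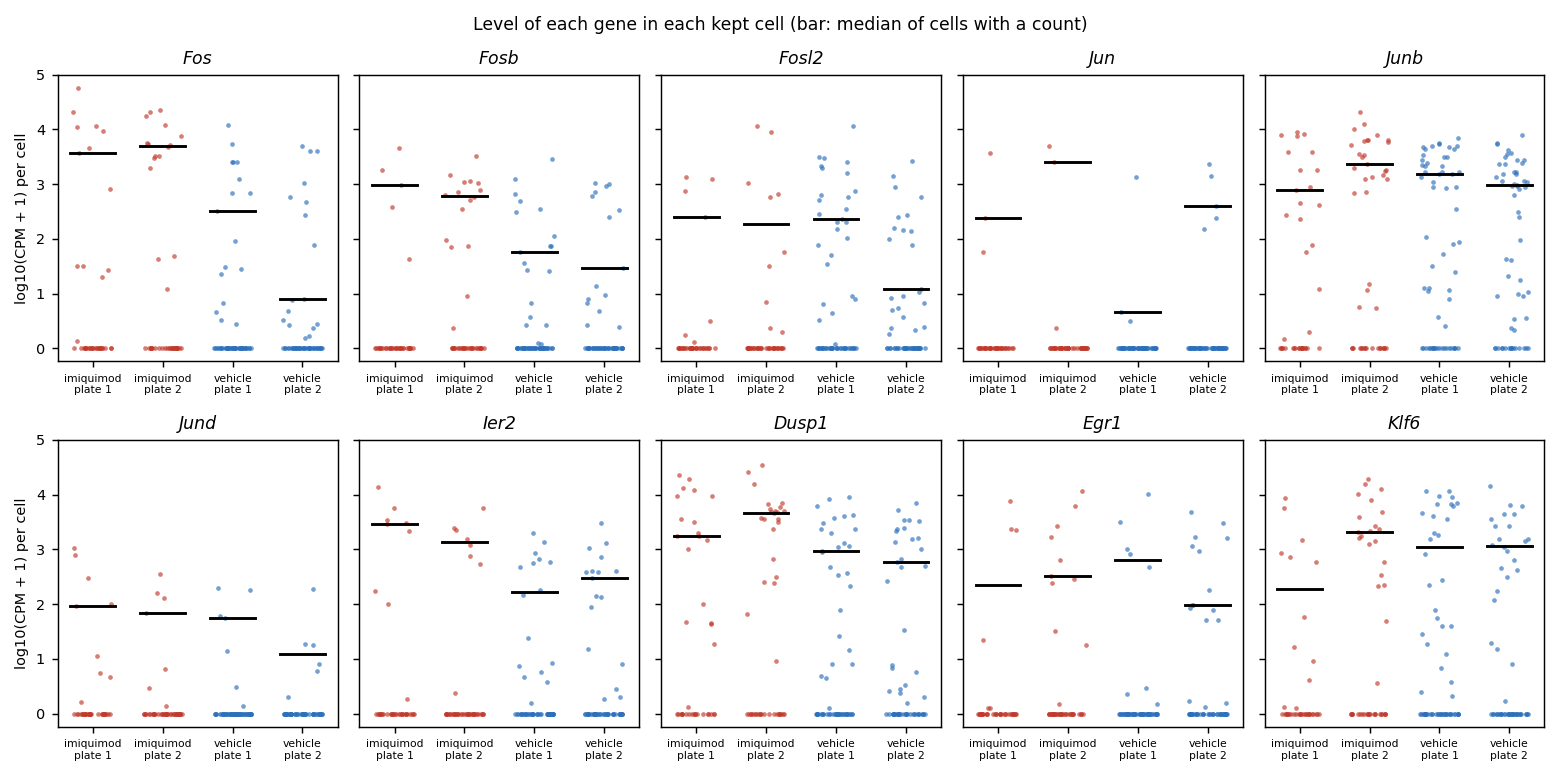
Level of each gene in every kept cell as log10(CPM + 1), by treatment and plate, with a bar at the median of the cells with a count. On each plate most cells sit at 0 for the genes other than Junb and Dusp1, and the bars of Fos lie at 3697 and 5049.5 CPM in imiquimod against 317.6 and 7.05 CPM in vehicle.

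Among the Jun family, Junb was the gene found in most cells. It had a count in 50.0% and 61.4% of imiquimod cells, against 66.1% and 72.4% of vehicle cells, so the sum was higher and the share of cells lower. The sums were 2900 and 2896 CPM in imiquimod, against 1616 and 1188 CPM in vehicle. This is a log2 fold change of 1.05 ± 0.48 (edgeR adjusted p = 0.43). JunB is known in T cells for binding DNA together with BATF and IRF4. Its share of all counts of the 10 genes was 18.2% and 20.7% on the imiquimod plates against 27.0% and 31.8% on the vehicle plates.

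Jun, the classic partner of Fos in AP-1, was the rarest of the set. It had a count in 3 of 38 and 3 of 44 imiquimod cells, against 3 of 62 and 5 of 58 vehicle cells. Its plate sums of 140.1 and 297.9 CPM in imiquimod against 21.7 and 87.2 CPM in vehicle rested on those few cells. On the first vehicle plate 1 cell held 99.9% of the Jun counts, and on the first imiquimod plate 1 cell held 86.2%. Jund, the Jun family member present in many resting cells, was detected in 23.7% and 15.9% of imiquimod cells, against 11.3% and 10.3% of vehicle cells. Its level was low throughout, at 57.7 and 24.0 CPM in imiquimod plate sums against 16.6 and 9.69 CPM in vehicle plate sums.

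Dusp1 showed the pattern of Fos. It had a count in 50.0% and 52.3% of imiquimod cells, against 43.5% and 46.6% of vehicle cells. At 1000 CPM or more the shares were 34.2% and 38.6% of imiquimod cells, against 21.0% and 20.7% of vehicle cells. Its median in positive cells was 1786 and 4693 CPM in imiquimod, against 945 and 577 CPM in vehicle. Both plates of imiquimod lay above both vehicle plates in each of these 3 measures (exact p = 0.3333 for each).

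Ier2 had higher levels in imiquimod cells with a count, while the gap in its share of cells changed with the cells and threshold used. It had a count in 23.7% and 18.2% of imiquimod cells, against 25.8% and 29.3% of vehicle cells. In cells thinned to 410000 counts the shares overlapped, at 25.0% and 15.9% of imiquimod cells against 23.5% and 27.3% of vehicle cells. In kept cells of at most 1500 genes they also overlapped, at 20.0% and 6.90% of imiquimod cells against 12.8% and 17.2% of vehicle cells. Its median in positive cells was 2904 and 1386 CPM in imiquimod, against 163.4 and 304.8 CPM in vehicle. Cells with at least 1000 CPM of Ier2 made up 15.8% and 11.4% of imiquimod cells, against 3.23% and 5.17% of vehicle cells. Among detected cells, 1 of 9 and 1 of 8 on the imiquimod plates held only 1 to 10 counts, against 7 of 16 and 5 of 17 on the vehicle plates. At a threshold of 100 CPM in place of 1 count the difference in share turned to 0.42 points higher in imiquimod.

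Detection of Egr1 and Klf6 overlapped between the treatments. Egr1 had a count in 15.8% and 25.0% of imiquimod cells, against 12.9% and 27.6% of vehicle cells. Klf6 had a count in 31.6% and 47.7% of imiquimod cells, against 45.2% and 41.4% of vehicle cells. Their plate sums gave log2 fold changes of 1.45 ± 1.118 and 0.53 ± 0.61 (edgeR adjusted p = 0.67 and 0.82). Without the second imiquimod plate these were 0.52 for Egr1 and 0.15 for Klf6, and without the first they were 2.15 and 0.98. The fold change of Klf6 was 0.18 without the second vehicle plate, 0.96 without the first and 0.062 without scaling factors. Klf6 made up 7.78% and 15.8% of all counts of the 10 genes on the imiquimod plates, against 25.8% and 23.0% on the vehicle plates. Fos made up 25.4% and 20.4% on the imiquimod plates, against 11.6% and 7.99% on the vehicle plates.

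For the level summed over the 10 genes, 1000 CPM was the planned threshold, with 300, 3000 and 10000 CPM as alternatives. Shares of cells separated by treatment only at 10000 CPM. Cells at or above 10000 CPM made up 34.2% and 43.2% of imiquimod cells, 13 and 19 cells. In vehicle they made up 14.5% and 6.90%, 9 and 4 cells (exact p = 0.3333, the smallest that 2 plates against 2 allow). At a threshold of 1000 CPM the shares were 60.5% and 72.7% in imiquimod against 61.3% and 60.3% in vehicle, and the plates overlapped (exact p = 0.667). The median summed level per cell was 3735 and 8757 CPM in imiquimod, against 3177 and 2751 CPM in vehicle. None of the 10 genes had a count in 18.4% and 11.4% of imiquimod cells, against 11.3% and 13.8% of vehicle cells, and here too the plates overlapped.

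The number of the 10 genes detected per cell did not separate the treatments. Its median was 2.5 and 3 on the imiquimod plates, against 2.5 and 3 on the vehicle plates, and its mean was 2.68 and 3.23 in imiquimod against 3.11 and 3.31 in vehicle (exact p = 0.667 for the mean). At least 5 of the genes were found in 26.3% and 27.3% of imiquimod cells, against 27.4% and 31.0% of vehicle cells. All 10 genes were found together in 3 cells, 1 on the second imiquimod plate and 1 on each vehicle plate. Those 3 cells had 7483 genes in imiquimod, against 5871 and 4823 genes in vehicle, well above the plate medians.

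**Figure D3:**
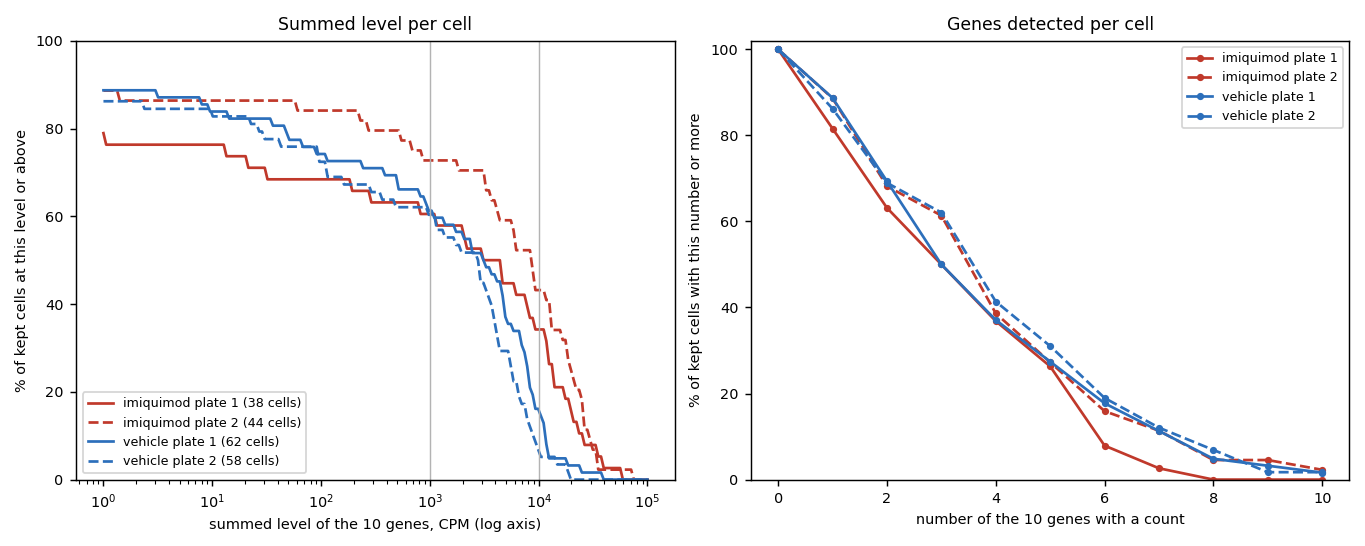
At left, the percentage of kept cells at or above each summed level of the 10 genes in CPM (log axis, grey lines at 1000 and 10000 CPM); at right, the percentage with at least a given number of the genes detected; red lines are imiquimod plates and blue lines vehicle plates. At 10000 CPM the imiquimod plates stand at 34.2% and 43.2% against 14.5% and 6.90% for vehicle, and at right the lines of both treatments run together apart from the first imiquimod plate beyond 5 genes.

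The counts were concentrated in few cells on every plate. Of all counts of the 10 genes, 50% came from 4 and 6 imiquimod cells, against 6 and 8 vehicle cells, and 90% came from 13 and 20 imiquimod cells, against 23 and 23 vehicle cells. The gene of highest level in the 32 imiquimod cells at 10000 CPM or more was Dusp1 in 10, Fos in 9, Klf6 in 6, Junb in 5, Ier2 in 1 and Fosl2 in 1. In the 13 vehicle cells it was Klf6 in 7, Dusp1 in 3 and Fos, Fosl2 and Junb in 1 each. Foxp3 had a count in 10 of the 32 imiquimod cells and 8 of the 13 vehicle cells. The median number of genes in these cells was 1077 in imiquimod and 1259 in vehicle. With each gene's highest cell on each plate removed, all 10 log2 fold changes were still above 0, beside 42.4% of the 8783 genes tested. In edgeR 0 of the 10 passed the adjusted threshold, as did 0 of all genes. At an unadjusted p under 0.05, 4 of the 10 were higher and 0 lower. Among all 8783 genes of that fit 1286 were lower at that level. Far fewer were higher, a much smaller share of all genes than the 4 among the 10.

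Cells with more genes detected also held more of the set. Within plates, the Spearman correlation of genes per cell with the number of the 10 genes was 0.64 and 0.61 on the imiquimod plates and 0.64 and 0.73 on the vehicle plates, which describes cells that share a library preparation and a depth range. With cells thinned to 410000 counts, leaving out 6 and 0 imiquimod cells and 11 and 3 vehicle cells, the mean number of the genes was 2.47 and 3.05 in imiquimod and 3.14 and 3.09 in vehicle. Fos was then detected in 34.4% and 36.4% of imiquimod cells against 27.5% and 25.5% of vehicle cells, and Fosl2 in 15.6% and 18.2% of imiquimod cells against 41.2% and 36.4% of vehicle cells.

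Fos was seen more often in cells with a Foxp3 count on each plate. In imiquimod, Fos had a count in 42.9% and 42.9% of cells with a Foxp3 count, against 29.2% and 33.3% of cells without one. In vehicle the shares were 33.3% and 43.5% of cells with a Foxp3 count, against 23.7% and 20.0% of cells without one. Cells with a Foxp3 count also had more genes detected, with plate medians between 1080.0 and 2740.0, against 794.5 to 1043 in cells without one, and the part of that gap in the Fos shares was not tested.

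AP-1 needs a Fos and a Jun family protein or a pair of Jun proteins, and transcripts of both families were often found in the same cell. A Fos family and a Jun family count occurred together in 44.7% and 43.2% of imiquimod cells, against 51.6% and 50.0% of vehicle cells (exact p = 0.3333). Over all kept cells, 97 had both, 39 only a Jun family count, 19 only a Fos family count and 47 neither. Of the 63 cells with Fos, 53 also had Junb and 11 had Jun. All 14 cells with Jun also had Junb, which was present in 63.9% of all kept cells.

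Among the 45 pairs of genes, Fos and Dusp1 had the highest mean correlation of levels over cells. Their Spearman correlation was 0.46 and 0.43 on the imiquimod plates and 0.31 and 0.39 on the vehicle plates, with a mean of 0.40. Of the imiquimod cells with Fos, 84.6% and 75.0% had Dusp1, against 32.0% and 39.3% of imiquimod cells without Fos. Of the vehicle cells with Fos, 64.7% and 76.5% had Dusp1, against 35.6% and 34.1% of vehicle cells without Fos. Fosb and Ier2 followed with a mean of 0.39, Ier2 and Dusp1 with 0.37, Fos and Fosb with 0.36, and Egr1 and Klf6 with 0.36. Fosl2 stood apart, since its closest partner was Jund at 0.19, and its correlation was 0.03 with Fos and -0.02 with Egr1. These values describe cells of 4 plates and carry no p-value. Since cells with more genes detected also held more of the set, pairs can share a cell through gene number. The part of gene number in these values was not tested.

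**Figure D4:**
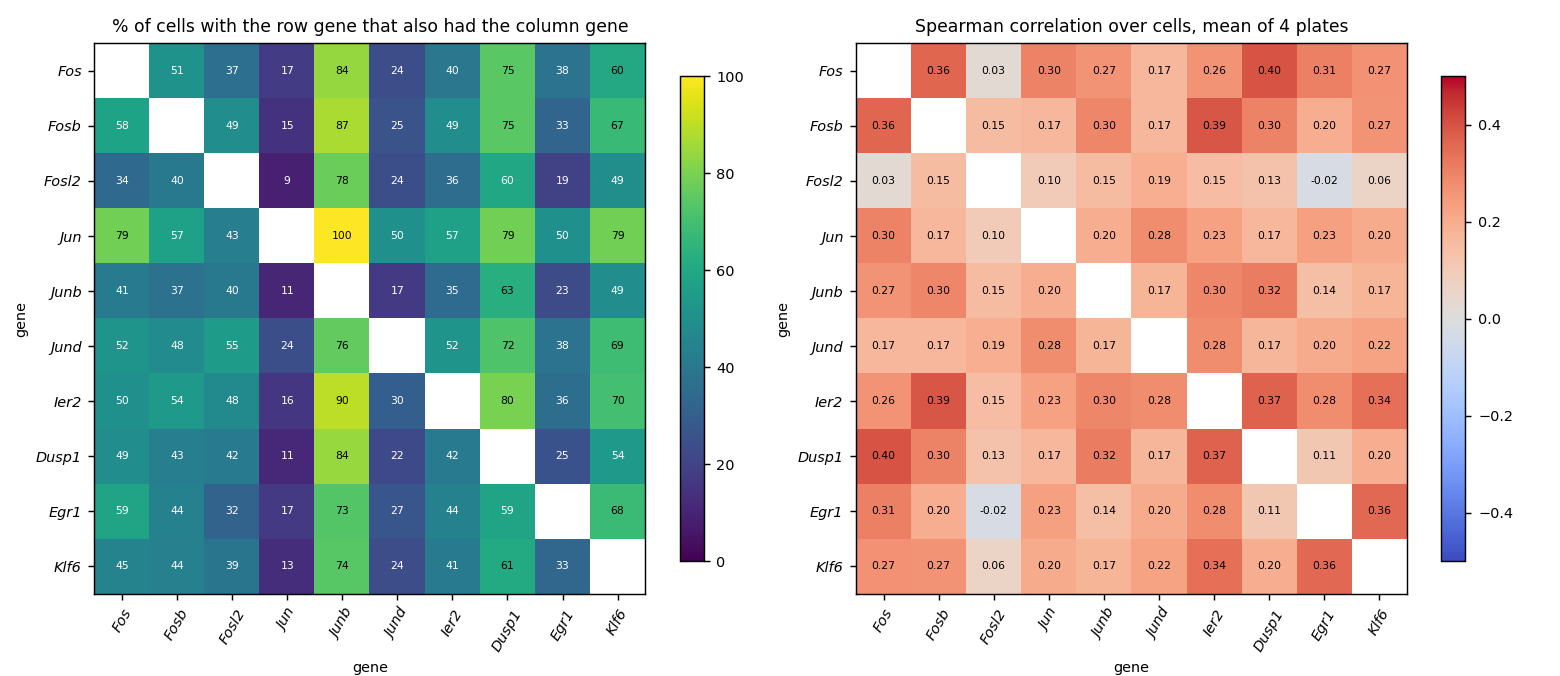
At left, the percentage of kept cells with the row gene that also had the column gene; at right, the Spearman correlation of levels over cells, averaged over the 4 plates. Junb fills the brightest column at left, with 84.1% of Fos cells, and the row of Fosl2 is palest at right.

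Outside the set, the genes whose levels followed the summed level of the 10 most closely were sought among 815 genes detected in at least 25% of kept cells. The 10 nearest were Paf1, Zfp36, Crip1, Cd69, Atp2b1, Nfkbia, Serinc3, Pfn1, Cdk13 and Pitpnc1, with mean within-plate Spearman correlations between 0.32 and 0.42, against a median of 0.10 over all candidates. The summed level had a like correlation with the total counts of a cell, 0.34, and 0.27 with its number of genes, and the part of depth in these values was not tested. Zfp36, which encodes a protein that destabilises AU-rich mRNAs, Cd69, an early activation antigen of T cells, and Nfkbia, the inhibitor of NF-kB, are themselves immediate early genes. Paf1 and Zfp36 lie on the same chromosome with Med29 between them in RefSeq, and each of the 74 cells with Zfp36 also had Paf1, which was found in 89 cells. Reads of neighbouring genes cannot be told apart where counting does not use strand or where annotations overlap.

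Compared per kilobase of exon, Junb, Fos and Dusp1 had the highest mean levels over the 4 plates. Junb averaged 872 CPM per kb over the 4 plates, with 875 and 1184 in imiquimod and 767 and 660.1 in vehicle. Fos averaged 706 CPM per kb, with 1197 and 1142 in imiquimod and 323.1 and 162.01 in vehicle, and Dusp1 averaged 694, with 1120.5 and 1012 in imiquimod and 376.1 and 268.2 in vehicle. Klf6 averaged 325.8 CPM per kb, with 196.5 and 474 in imiquimod and 383.3 and 249.3 in vehicle. On the vehicle plates it lay above Fos on both and above Dusp1 on the first, so the order of the means did not hold there. Ier2 averaged 315.03 CPM per kb, and the remaining 5 genes ran down through Egr1 (82.4), Jun (40.2), Fosl2 (32.1) and Fosb (27.9) to Jund (14.0). Each gene's range over the 4 plates overlapped that of its neighbours in this order. Exon lengths were those of GENCODE M21 on GRCm38, an older build than the mm39 of the counts.

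The promoters of Fos, Fosb, Junb and Dusp1 are shown because they hold TGACG, the core of the cAMP response element recognised by CREB and related bZIP proteins. The 4 stretches of 100 bases are RefSeq promoter sequence of GRCm38.p6, read 5′ to 3′ on the gene's strand upstream of the start, with TGACG in capitals (for Dusp1 the full element TGACGTCA as well). Fos is at chr12:85473790-85473889 on the plus strand, Fosb at chr7:19310046-19310145, Junb at chr8:84978769-84978868 and Dusp1 at chr17:26508573-26508672, these 3 on the minus strand.
Fos: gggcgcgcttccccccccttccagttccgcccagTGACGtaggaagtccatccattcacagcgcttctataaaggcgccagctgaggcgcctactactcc
Fosb: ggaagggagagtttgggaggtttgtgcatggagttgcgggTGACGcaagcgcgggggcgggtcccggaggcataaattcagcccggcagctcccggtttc
Junb: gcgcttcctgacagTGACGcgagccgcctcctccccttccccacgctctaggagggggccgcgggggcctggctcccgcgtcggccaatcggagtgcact
Dusp1: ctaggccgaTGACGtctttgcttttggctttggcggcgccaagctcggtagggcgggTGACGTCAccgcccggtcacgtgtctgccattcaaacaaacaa

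Within 250 bases before to 50 bases after the start, TGACG on either strand was in 4 of the 8 promoters that could be matched, beside 20.8% of 32851 promoters of the same length. The full palindrome TGACGTCA was in Dusp1, beside 1.79% of all promoters, and every full element also counts as a TGACG match. The AP-1 motif TGANTCA was in 0 of the 8, beside 7.81% of all promoters, and the CArG box of serum response factor was in 0 of the 8, beside 1.63%. GGGCGG was in 6 of 8, beside 35.7%, CCAAT in 3 of 8, beside 37.4%, and TATAAA in 2 of 8, beside 13.6%. A match is a run of letters and not evidence of binding, and a missing match covers these windows alone. Ier2 and Egr1 were not analysed here.

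Other genes of the pathway were counted in the same fit. Of 40 further immediate early genes, 36 were tested and 28 had a log2 fold change above 0, with a median of 0.92 against -0.26 over all tested genes. The plates did not overlap for 14 of them higher in imiquimod and 2 lower, beside 13.7% and 31.1% of all tested genes, and 0 passed the adjusted threshold. The 4 of highest level, Nfkbia, Nr4a1, Cd69 and Ppp1r15a, had log2 fold changes between 0.38 and 1.45, and the plates of each overlapped. Nfkbia stood at 3324 and 2065 CPM in imiquimod, against 2357 and 973 CPM in vehicle. Of 26 tested genes of the MAP kinase cascade and its phosphatases, 17 were above 0, with a median of 0.67 and 0 called, and the plates did not overlap for 5 higher and 3 lower in imiquimod. At an unadjusted p under 0.05 (edgeR), 0 of them were higher and 1 was lower, beside 1.72% and 9.82% of all tested genes. Among the 4 of highest level, the plates of Map2k3 and Dusp16 overlapped, while Map2k2 and Dusp2 were higher in imiquimod without overlap. Dusp2, a nuclear MAP kinase phosphatase, stood at 366.6 and 434 CPM in imiquimod, against 78.2 and 55.4 CPM in vehicle.

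Of 14 tested other AP-1 and related bZIP factors, 8 were above 0, with a median of 0.49 and 0 called. The plates did not overlap for 4 higher in imiquimod, Atf2, Atf4, Mafg and Nfil3, and for 3 lower, Fosl1, Maff and Mafk, beside 13.7% and 31.1% of all tested genes; apart from Nfil3 these were named after their values were seen. Fosl1, the remaining Fos family gene, stood at 0.043 and 0 CPM in imiquimod, against 40.9 and 1.87 CPM in vehicle. Batf, the bZIP partner of Junb in T cells, stood at 608 and 367.4 CPM in imiquimod, against 328.4 and 698 CPM in vehicle, a log2 fold change of -0.07 ± 0.96 with overlapping plates. Nfil3 stood at 599.9 and 310.1 CPM in imiquimod, against 120.6 and 105.8 CPM in vehicle. Of 10 transcription factors that act on immediate early promoters, among them Srf and the Elk factors, 6 were above 0, with a median of 0.43 and 0 called.

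Heat shock genes are known to respond to tissue dissociation. Of 10 tested heat shock genes, 8 had a log2 fold change above 0, with a median of 1.23, and 6 did not overlap and were higher in imiquimod, beside 13.7% of all tested genes. The plates of 1, Hspd1, did not overlap and were lower, at 3.57 and 55.9 CPM in imiquimod against 86.5 and 70.4 CPM in vehicle, beside 31.1% of all tested genes. None passed the adjusted threshold, and 1 was at an unadjusted p under 0.05 (edgeR). At DESeq2's size factors their median was 1.66. The chaperone Hspa8 stood at 2250.2 and 1773 CPM in imiquimod, against 1377 and 941 CPM in vehicle. Dnaja1 stood at 489 and 679 CPM in imiquimod, against 188.6 and 188.5 CPM in vehicle. Their part in the levels of the 10 genes was not tested.

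In wells of 10 cells, Junb and Klf6 had a count in all 16 wells, Fosl2, Jund and Dusp1 in 15, Fos, Ier2 and Egr1 in 14, Fosb in 13 and Jun in 8. A single kept cell had Fos in 31.2% and Jun in 6.93% of cases. Well totals ran between 710021 and 9159522 counts, so depth differs from single cells as well as cell number. The labels give no treatment for these wells, so no treatments were compared, and the 4 sets of 4 wells were described side by side.

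Fos stood at 5778, 809, 6.44 and 951 CPM in the wells of the first set and at 688, 4479, 0 and 71.8 CPM in those of the second. In the third set it stood at 0, 73.3, 1846 and 58.7 CPM, and in the fourth at 1876, 1541, 2733 and 1076 CPM. The first 3 sets each had a single well far above the others, while the wells of the fourth all exceeded 1000 CPM. Junb stood at 1662 to 2922 CPM in the first set, 649 to 2443 in the second, 113.03 to 776 in the third and 153.5 to 4431 in the fourth, where its range was wider than that of Fos.

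The summed level of the 10 genes ranged from 7883 to 14679 CPM in the first set, 2791 to 10669 in the second, 2712 to 3541 in the third and 2004 to 15276 in the fourth. The lowest well of the fourth set also had the fewest counts, 710021, and its neighbours lay between 13872 and 15276 CPM. All wells of the first set were above all wells of the third. Jund was mostly higher in the third set, at 29.2 to 217.6 CPM, than in the first, at 3.46 to 30.0 CPM, and these ranges overlapped. The coefficient of variation of Fos over the 16 wells was 123.5% and that over the kept single cells 387%, and for Junb the values were 75.4% and 175.9%.

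**Figure D5:**
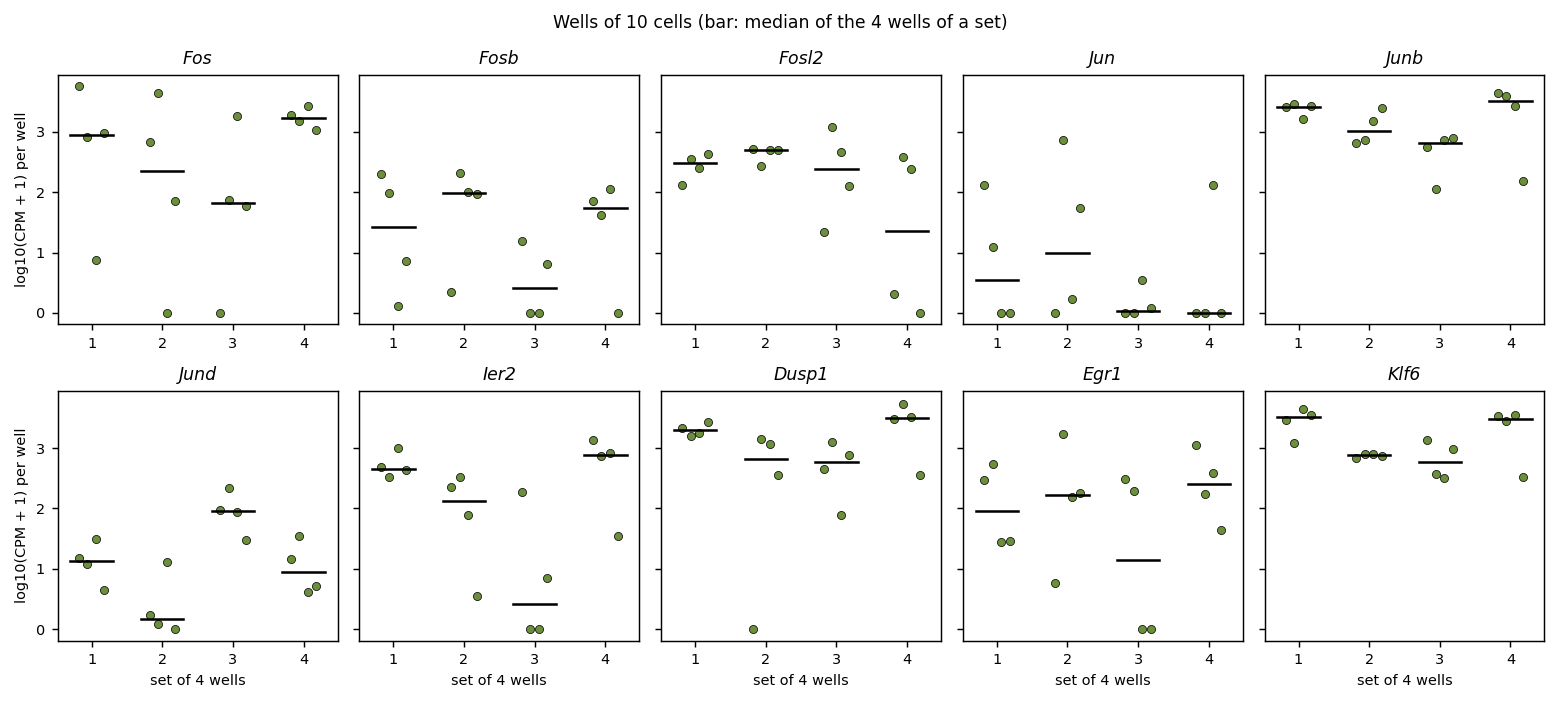
Level of the 10 genes in the 16 wells of 10 cells as log10(CPM + 1), by set of 4 wells, with a bar at each set's median. Junb and Klf6 have a count in every well, and Jun is at 0 in 8 of the 16 wells.

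Wells without a cell set the background. Genes of the set had counts in 3 of 20 empty wells. The first held 5538 counts over 5 of the genes among 1527760 counts and 885 genes, and it is the 1 empty well that would pass the filter for cells. Another held 4409 counts of Junb alone among 428587, and the last held 3 counts of the set in all. Junb therefore had a count in 3 of 20 empty wells and Fos in 2 with 3 counts together, while Fosb, Fosl2, Jun, Ier2 and Dusp1 had none. Taken over all wells, 0 of 20 allows a share of up to 15.0%. Many of these wells held at most 2824 counts, and some held 0, so they could hardly have shown these genes. Among empty wells with more reads the share allowed is therefore larger than 15.0%.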

How the data were processed

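Single Treg cells were sequenced from plates, with wells of 10 cells and empty wells. The deposited values are raw counts of reads per gene and well. Per the submitters' processing notes, Trimmomatic 0.39, STAR 2.7.3a and SAMtools 1.12 were used with mm39. Counting tool, strand setting and annotation are not given in the sources used here. No molecular identifiers are mentioned, so each PCR copy counts as a read. Counts of kept cells (at least 500 genes and 10000 counts) were summed per plate and tested with edgeR 4.0.16 (TMM, filterByExpr, quasi-likelihood, Benjamini-Hochberg, threshold 0.05). DESeq2 1.42.0 and limma 3.58.1 (pseudocount 1) were alternatives. The fit was also run on simulated data, and the outcome, including how many set changes it recovered, is not reported here. Shares per plate were tested with SciPy 1.17.1 by exact, two-sided permutation of the plates. CPM per cell were unscaled. The 10 genes and all lists were chosen with earlier results of these data known. All 10 genes were named, up to 4 per other list (smallest p if called, otherwise highest level), and the 10 genes most correlated with the summed level, without ribosomal, mitochondrial and uncharacterised genes. Wells were filled by sorting, and doublets were not called. Alternatives were other cell filters, thinning, other or no scaling factors, no expression filter, sums of cells with a count, removal of each gene's highest cell, and each plate left out.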

Additional observations from a re-analysis of the deposited data

Results flagged for a closer look

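Within sets of 4 ten-cell wells, 44 groups of values were examined for a well far from the other 3, and 12 stood out. Chance gives about 1 in 20 for normally distributed values, but these CPM were skewed and held zeros, so that rate is no yardstick for the 12. Fos had a single high well in 3 sets, at 5778 CPM against 951 for the next in the first set, 4479 against 688 in the second and 1846 against 73.3 in the third. Jun had a single high well in each set, at 131.1 CPM in the first, 742 in the second, 2.57 in the third and 129.9 in the fourth, against 11.5, 53.9, 0.204 and 0 CPM for the next well. The well of the second set that was high for Fos and Jun was also the highest for Egr1, at 1728 CPM against 178.9, and the lowest for Fosl2, at 271.6 CPM against 499. Jund stood out at 12.1 CPM in the second set against 0.713, and Ier2 at 186.4 CPM in the third against 5.91. The summed level of the 10 genes was low in 1 well of the fourth set, at 2004 CPM against 13872 for the next lowest.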

How the results depend on the processing

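No paired analysis was possible because the labels tie no imiquimod plate to a vehicle plate. The count of all genes past the adjusted threshold, 0 in edgeR, was 3740 in DESeq2, 9 without an expression filter, 17 for sums of cells with a count and 1 in cells of 500 to 1500 genes (Mcm7, no member of the set, named after its value was seen). The count among the 10 genes, 0 in edgeR, was 4 in DESeq2. Leaving out a plate gave 0 to 794 genes and 0 to 3 of the 10. Without the first imiquimod plate Fos (edgeR adjusted p = 0.00121) and Dusp1 (0.0072) were called. Without the second, Fos (0.000504), Dusp1 (0.00124) and Ier2 (0.0307) were called among 794 genes. A lone plate takes the spread of the other treatment's plates. Leaving out either vehicle plate gave 0 calls. The count of the 10 genes whose imiquimod plates lay wholly above the vehicle plates was 8, beside 13.7% of all tested genes. Without scaling factors it was 5, beside 10% of all tested genes. It was 4 of 8 in cells of 500 to 1500 genes and 4 of 8 for sums of cells with a count. The share over all genes was not counted for those 2 fits. Counts with a plate left out are not compared, since a lone plate separates more easily. Jun and Jund were not tested in the fits of cells of 500 to 1500 genes and of sums of cells, where 8 of the 10 genes passed the expression filter. The log2 fold change of Fosl2 turned to -1.30 in limma, -0.17 in cells of at least 1000 genes, -0.035 in all wells, -0.038 without scaling factors, -0.52 for sums of cells and ran from -0.18 without the second vehicle plate to 1.52 without the first. That of Junb was -0.63 and that of Klf6 -0.29 in limma, and that of Egr1 was -0.84 in cells of 500 to 1500 genes. With a plate left out, Jun ran from 1.28 to 3.35, Jund from 0.97 to 2.23, Ier2 from 1.65 to 3.06 and Fosb from 0.99 to 1.73. The share of cells with a count turned round for Ier2 at 100 CPM (0.42 points) and for Dusp1 in all wells (-7.67). The share with both families was 2.55 points higher in cells of 500 to 1500 genes. The number of the 10 genes found in a larger share of imiquimod cells, 5, was 3 in cells of at least 1000 genes, 2 in all wells, 3 in thinned cells and 3 to 7 with a plate left out. The difference in mean number of genes per cell, -0.26, was -0.73 in all wells, 0.39 in cells of 500 to 1500 genes and -0.53 to 0.02 with a plate left out. The difference in the share at 1000 CPM, 5.81 points, was -4.91 in all wells, 28.0 at a threshold of 10000 CPM and -0.29 to 11.9 with a plate left out, lowest without the second imiquimod plate. The share at 10000 CPM stayed 23.5 to 32.5 points higher with any plate left out. The cause of these shifts was not tested. Of the 10 genes nearest in level, 8 were shared with a ranking over pooled cells, and ten-cell values were given in CPM alone, with no second scale run.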
